A study of Mus musculus with 5 samples.

Results

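The Toll-like receptor (TLR) genes are a family of innate immune sensors, and 9 of them, named by symbol, were followed here among the 24419 gene rows of the table. They were Tlr1, Tlr2, Tlr4 and Tlr6, whose products sit on the cell surface, and Tlr3, Tlr7, Tlr8, Tlr9 and Tlr13, whose products sit in endosomes. RNA came from bone marrow-derived macrophages (BMMs) of C57BL/6 mice, grown with 50 ng/ml M-CSF for 5 days and activated with 100 ng/ml LPS. The activated cells were then given PBS (2 samples) or 100 ng/ml recombinant semaphorin 3G (Sema3G, 3 samples) for 18 h. Sema3G is a secreted guidance protein that binds neuropilin-2 and plexins. All 5 samples had received LPS, so the response of the TLR genes to LPS itself cannot be read from these data. Nothing in the labels says that the samples came from separate cultures or animals, so the p-values below measure the spread between these samples, which may be technical.

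TLRs carry leucine-rich repeats that bind microbial molecules and a cytoplasmic TIR domain that recruits adaptors such as MyD88 and TRIF. TLR2 pairs with TLR1 or TLR6 to detect bacterial lipopeptides, and TLR4 with MD-2 and CD14 detects LPS. TLR3 detects double-stranded RNA, TLR7 and TLR8 detect single-stranded RNA and its breakdown products, TLR9 detects unmethylated CpG DNA and TLR13 detects bacterial ribosomal RNA. The endosomal receptors leave the endoplasmic reticulum with the chaperone UNC93B1 and are cut by lysosomal proteases, and macrophages are among the cells that carry most members of the family.

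Each library counted RNA molecules at their 3′ ends with a unique molecular identifier (UMI), so a UMI stands for 1 captured molecule whatever its length, and levels are given in CPM, the UMI count scaled to a common library total. The totals were between 1798469 and 2215855 UMIs, of which 77.6% and 75.6% lay on listed genes under PBS against 71.3%, 67.1% and 65.9% under Sema3G, without overlap (exact two-sided permutation test p = 0.2). The ribosomal RNA precursor gene Rn45s held 1.01% and 3.19% of all UMIs under PBS against 6.31%, 7.40% and 7.88% under Sema3G, with no overlap between the groups (exact two-sided permutation test p = 0.2, the smallest that 2 samples against 3 allow). Among the 10088 genes averaging 1 CPM or more, limma called 160 higher and 22 lower with Sema3G at an adjusted p below 0.05, and among 10095 genes after scaling by TMM factors it called 325 higher and 3 lower. The median log2 fold change of all tested genes was -0.22, and -0.034 after that scaling, so changes are also read against this median. The macrophage genes Csf1r, Adgre1, Cd68 and Lyz2 were abundant in every library, with a summed level of all 8 macrophage markers of 9133 to 12172 CPM with PBS and 8842 to 9149 CPM with Sema3G. Among the 8, Mertk was rare, with 2 and 0 UMIs under PBS against 5, 4 and 5 under Sema3G. At an unadjusted limma p under 0.05, Mertk was higher with Sema3G (log2 fold change 1.18) and Adgre1 lower (-0.53), and 0 of the 8 were called. Of 38 markers of B cells, plasmacytoid and conventional dendritic cells, T and NK cells, neutrophils, mast and basophil lineages and stroma, 37 were listed, 22 were at 0 in all libraries and 0 were called. At an unadjusted p under 0.05, which 21.1% of all tested genes reached, limma gave a single difference among the 6 of them abundant enough to test, the B cell receptor chain gene Cd79b (5 and 5 UMIs under PBS, 1, 0 and 1 under Sema3G). The B cell gene Ms4a1 and the plasmacytoid dendritic cell gene Siglech, of cell types known for TLR7 and TLR9, were at 0 throughout.

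The sequence around the start of Tlr8 is shown because it was the only member called, and that of Tlr2 because it was the most abundant member. Both are RefSeq sequences of GRCm38.p6, the build mm10 of the deposited data, reading from 250 bases before to 50 bases after the annotated start, with capitals marking letters that match a searched motif. The Tlr8 window is chrX:167264280-167264579 on the minus strand, and the Tlr2 window is chr3:83841559-83841858 on the minus strand.
Tlr8: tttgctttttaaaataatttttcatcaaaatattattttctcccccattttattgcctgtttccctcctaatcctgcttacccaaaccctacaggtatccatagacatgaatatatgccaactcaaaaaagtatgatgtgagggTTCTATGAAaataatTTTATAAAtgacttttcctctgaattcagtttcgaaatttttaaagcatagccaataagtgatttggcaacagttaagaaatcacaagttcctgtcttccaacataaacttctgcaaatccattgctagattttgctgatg
Tlr2: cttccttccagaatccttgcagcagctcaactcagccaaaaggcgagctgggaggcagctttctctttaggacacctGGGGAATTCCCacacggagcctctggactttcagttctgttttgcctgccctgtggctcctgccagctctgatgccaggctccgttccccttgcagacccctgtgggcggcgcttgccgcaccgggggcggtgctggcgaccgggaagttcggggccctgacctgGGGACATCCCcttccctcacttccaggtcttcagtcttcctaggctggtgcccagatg
Searched on both strands were the TATA box (TATAAA), the interferon regulatory factor element, the κB consensus, the AP-1 element (TGANTCA), the PU.1 element (GAGGAAGT) and the STAT-binding GAS element (TTCNNNGAA). The Tlr8 window held TATA box letters on both strands, as 2 overlapping matches that began 91 and 89 bases before the start, and a GAS element match that began 106 bases before it. Such letters stand in 13.6% and 8.30% of the 32841 mouse windows of this length. The Tlr2 window held κB consensus letters at 2 places, which 4.51% of all windows hold at least once, one covered by 3 overlapping matches from 173 bases before the start and the other from 8 bases before it. These distances hold for the RefSeq start. The GENCODE M21 model starts Tlr2 upstream of it, at 83841767, so by that model the place nearer the RefSeq start lies inside the gene. The G and C content was 32.3% in the Tlr8 window and 62.0% in the Tlr2 window. Sequence windows were found for 7 of the 9 members, with no entry for Tlr4 and Tlr7, and these matches are descriptions of the letters only.

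Tlr2, the partner in lipopeptide sensing, had the highest level of the family in every library, above 91.5% of all tested genes by its mean of 120 CPM. The group means were 140 ± 4.11 CPM for PBS (SD, n = 2) and 106 ± 5.49 CPM for Sema3G (SD, n = 3). The endosomal receptors Tlr7 and Tlr13 came next, with means of 79.2 ± 27.9 and 72.2 ± 37.8 CPM for PBS (SD, n = 2) and of 50.0 ± 15.7 and 51.6 ± 16.6 CPM for Sema3G (SD, n = 3). Their order is not fixed by these data, since their ranges over libraries overlapped in both groups. With PBS, Tlr4, Tlr1 and Tlr3 followed at means of 20.1, 18.0 and 13.0 CPM, with overlapping ranges between neighbours, and then Tlr6 at 8.42 CPM. The surface and the endosomal receptors were thus mixed along the order, and their summed levels with PBS were 187 ± 13.8 and 166 ± 64.8 CPM (SD, n = 2), with overlapping ranges. With Sema3G the order below Tlr7 and Tlr13 was Tlr8, Tlr4, Tlr1, Tlr3 and Tlr6, at means of 19.3, 15.1, 10.8, 10.3 and 5.61 CPM, of which only Tlr1 and Tlr3 overlapped as neighbours. In Sema3G replicate 1, Tlr8 and Tlr4 stood at 17.2 and 16.7 CPM, closer than their counting error, so their order is not fixed there.

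**Figure D1:**
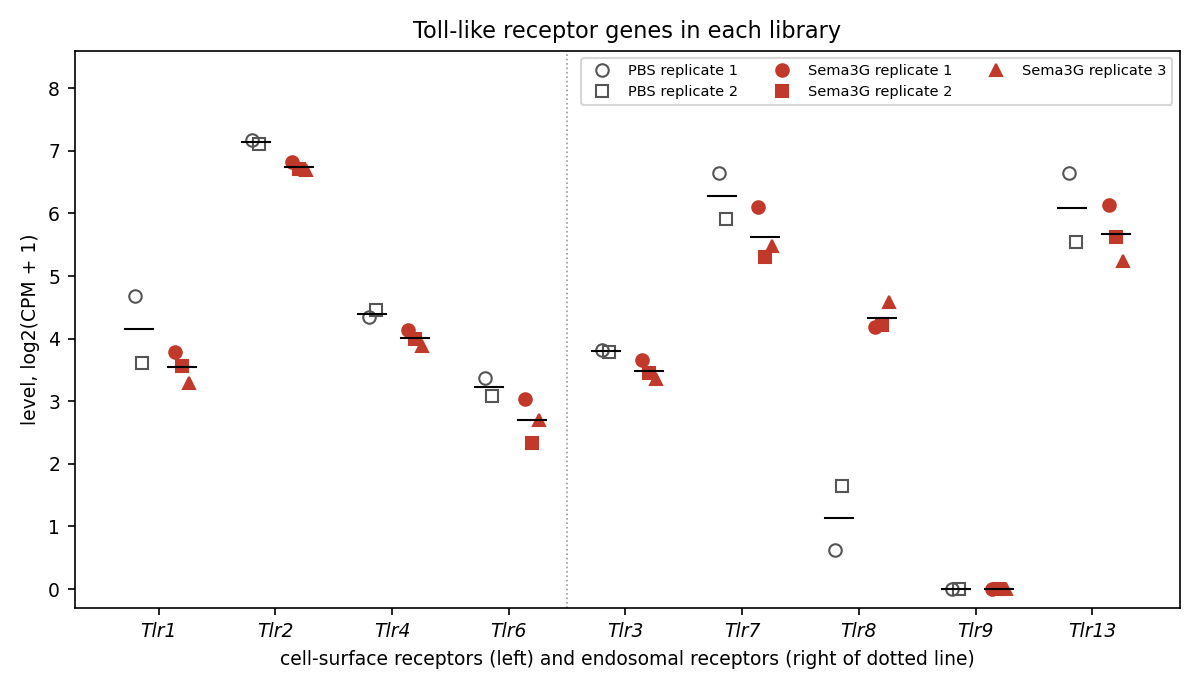
Level of each Toll-like receptor gene as log2(CPM + 1), with open symbols for the 2 PBS libraries, filled red symbols for the 3 Sema3G libraries, the symbol shape for the replicate number and a bar for each group mean. Tlr8 is the single gene whose Sema3G libraries all lie above its PBS libraries, Tlr2, Tlr4, Tlr6 and Tlr3 lie somewhat lower with Sema3G, and Tlr9 is at 0 in all 5 libraries.

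Tlr8 rose with Sema3G. The PBS libraries held 1 and 4 Tlr8 UMIs and the Sema3G libraries 31, 39 and 50, which is 0.549 and 2.14 CPM against 17.2, 17.6 and 23.0 CPM. Every Sema3G library lay far above both PBS libraries, and the 3 Sema3G libraries differed from each other by no more than their counting error. The log2 fold change on log2(CPM + 1) was 3.19 (95% interval 2.36 to 4.01, standard error 0.39, limma, Benjamini-Hochberg adjusted p = 0.000226), the fifth-largest rise, rank 5, among the 160 genes called higher. Of the 8 members tested 1 was called, and it was higher, beside 1.8% of all tested genes called in either direction and 1.59% called higher. With the recovered counts, edgeR's quasi-likelihood test also called Tlr8 alone (log2 fold change 4.01, adjusted p = 0.00136), beside 4.63% of its tested genes called higher. From the summed counts, 5 UMIs with PBS against 120 with Sema3G, the CPM ratio was 14.3, with an exact 95% interval of 5.97 to 44.9 that covers counting error only. In this bulk RNA, more cells that carry Tlr8 and more Tlr8 RNA per cell cannot be told apart. The rise was called under 17 of 18 alternatives, and with 1 library left out its log2 fold change ranged from 2.68 (PBS replicate 1 left out) to 3.70 (PBS replicate 2 left out). The exception was the model that took the log2 Rn45s share as covariate, in which it was 1.93 (limma adjusted p = 0.380). Since 76.9% of the variance of the log2 share lies between the groups, the Rn45s share and the treatment cannot be told apart in that fit.

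Tlr8 and Tlr7 are neighbours on the X chromosome, transcribed in the same direction, and Tlr7 was not called. In GENCODE M21 (GRCm38) Tlr8 spans chrX:167242696-167264329 and Tlr7 spans chrX:167304929-167330558, both on the minus strand, with 40599 bases and no annotated gene between them. Neither overlaps another annotated gene, so their counts are not shared with a neighbour in this annotation. Tlr7 counted 180 and 111 UMIs under PBS against 122, 85 and 95 under Sema3G, which is 98.9 and 59.4 CPM against 67.8, 38.4 and 43.8 CPM. The groups overlapped, because Sema3G replicate 1 lay above PBS replicate 2. Its log2 fold change was -0.65 (95% interval -1.19 to -0.11, standard error 0.26, with a limma adjusted p = 0.171), which misses the threshold. Without Sema3G replicate 1 the log2 fold change of Tlr7 was -0.89 and it was called (limma adjusted p = 0.0385), beside 5.49% of all tested genes called lower in that fit. It was -0.29 without PBS replicate 1 (limma adjusted p = 0.672) and -1.01 without PBS replicate 2 (limma adjusted p = 0.0688), and over listed genes other than Rn45s it was -0.37 (limma adjusted p = 0.521). With the Rn45s covariate it turned to 0.36 (limma adjusted p = 0.830). Set side by side under PBS, there were 180 Tlr7 UMIs to 1 Tlr8 UMI in replicate 1 (exact 95% interval of the ratio 31.9 to 7149) and 27.8 to 1 in replicate 2 (10.5 to 104). Under Sema3G the ratios were 3.94 (2.64 to 6.04), 2.18 (1.48 to 3.27) and 1.90 (1.34 to 2.73). These ratios are taken within a library, so they do not depend on the library total, and the intervals, which cover counting error only, did not meet between the groups.

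**Figure D2:**
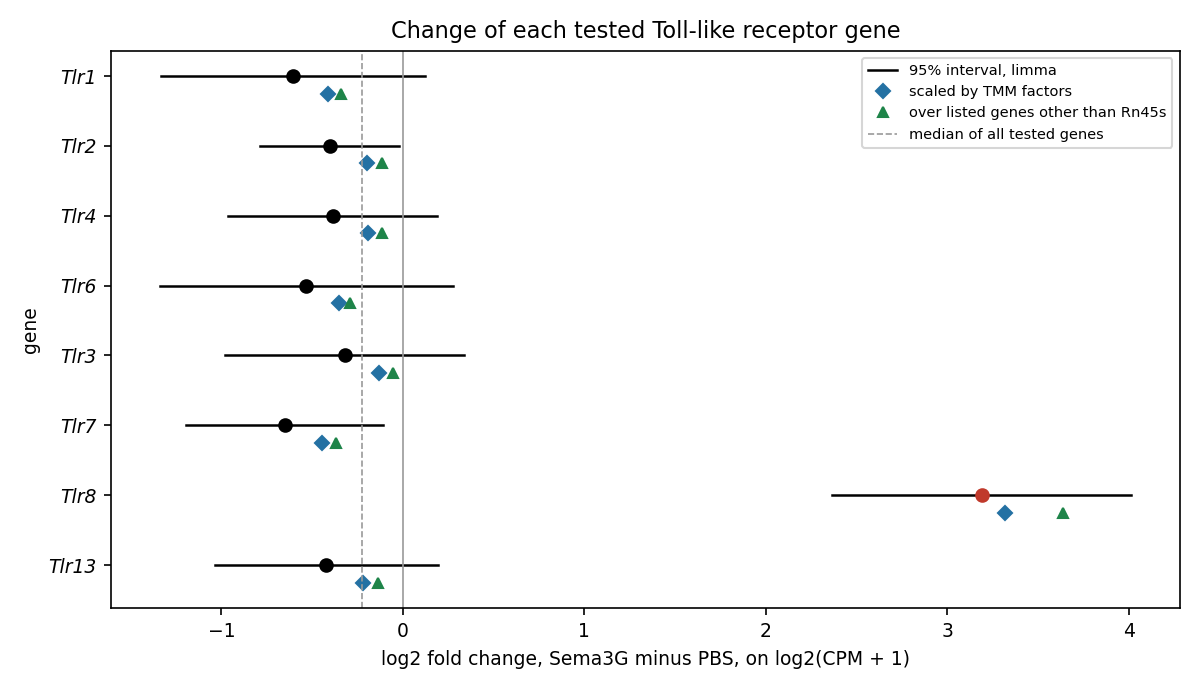
Log2 fold change of the 8 tested Toll-like receptor genes, Sema3G minus PBS, on log2(CPM + 1), with circles for the limma estimate (red where the adjusted p is below 0.05), lines for its 95% interval and smaller symbols for the same fit under other scalings. Tlr8 stands at 3.19, and the other 7 genes lie between -0.65 and -0.32, all below the dashed median of all tested genes at -0.22.

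The other 2 detected receptors of endosomes were not called. Tlr13, which senses bacterial ribosomal RNA and lies at chrX:106143204-106160493 on the plus strand, counted 180 and 85 UMIs under PBS against 125, 107 and 80 under Sema3G. PBS replicate 1 was the highest library, and PBS replicate 2 lay among the Sema3G libraries. The log2 fold change of Tlr13 was -0.42 (95% interval -1.04 to 0.19, with a limma adjusted p = 0.408), or 0.13 if PBS replicate 1 is left out. Tlr3, the sensor of double-stranded RNA on chromosome 8 (45395665 to 45411080, minus strand), counted 24 and 24 UMIs under PBS against 21, 22 and 20 under Sema3G. These are 13.2 and 12.8 CPM against 11.7, 9.93 and 9.22 CPM, and the groups did not overlap, as for 26.5% of all tested genes in this direction. The log2 fold change of Tlr3 was -0.32 (95% interval -0.98 to 0.34, with a limma adjusted p = 0.566). Over listed genes other than Rn45s its groups overlapped, and the log2 fold change was -0.054 (limma adjusted p = 0.963). The antisense gene Gm45542 shares 381 exonic bases with Tlr3 near its 5′ end, and the strand setting of the counting is not stated.

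Tlr9, the receptor for CpG DNA on chromosome 9 (106222598 to 106226883, plus strand), had 0 UMIs in all 5 libraries. A count of 0 allows 1.65 and 1.61 CPM at most for PBS and 1.67, 1.35 and 1.38 CPM at most for Sema3G, if 3 counts per library are the floor (counting error only). The gene annotation used for counting is not stated, and if it missed the 3′ end of Tlr9, neither the 0 nor this limit bears on its level. Tlr9 was left out of the test. Of the other mouse family members, Tlr5, the flagellin receptor, counted 0 and 4 UMIs under PBS against 3, 1 and 0 under Sema3G, and Tlr11 and Tlr12 had 0 throughout.

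All 4 surface receptors had log2 fold changes below 0, also under the other scalings, and none was called (with the Rn45s covariate that of Tlr1 was 0.74). Tlr2 (chromosome 3, 83836272 to 83841767, minus strand) counted 261 and 257 UMIs under PBS against 202, 229 and 222 under Sema3G. These are 143 and 138 CPM against 112, 103 and 102 CPM, and the groups were close within themselves and apart from each other. The log2 fold change of Tlr2 was -0.40 (95% interval -0.78 to -0.023, standard error 0.18, with a limma adjusted p = 0.214), or -0.18 relative to the median of all genes. Computed over the UMIs on listed genes other than Rn45s, it was 187 and 190 CPM against 173, 173 and 176 CPM, a log2 fold change of -0.12 (limma adjusted p = 0.819). Tlr4, the receptor of the LPS given to all samples (chromosome 4, 66827584 to 66930284, plus strand), counted 35 and 39 UMIs under PBS against 30, 33 and 30 under Sema3G. Its log2 fold change was -0.39 (95% interval -0.96 to 0.19, with a limma adjusted p = 0.421), and its groups overlapped once CPM was taken over listed genes other than Rn45s.

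Tlr1 and Tlr6, the partners of Tlr2, lie 18467 bases apart on chromosome 5, at 64924679 to 64933563 and 64952031 to 64960097 on the minus strand, with no annotated gene between them. Tlr1 counted 45 and 21 UMIs under PBS against 23, 24 and 19 under Sema3G, and Tlr6 had 17 and 14 with PBS and 13, 9 and 12 with Sema3G. The log2 fold change of Tlr1 was -0.60 with all libraries (95% interval -1.33 to 0.12, with a limma adjusted p = 0.320), -0.068 without PBS replicate 1 and -1.14 without PBS replicate 2 (limma adjusted p = 0.114), so its size depends on which PBS library is kept. For Tlr6 it was -0.53 (95% interval -1.34 to 0.28, with a limma adjusted p = 0.428). The transcripts of Tlr1 and Tlr6 share an exact run of 229 bases, longer than the 75-base reads, while no pair among the 36 pairs of members shares more than 46 bases within the last 600 bases. The treatment of reads from that run is not stated, so the split between these genes is uncertain to that extent.

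In all, 0 of the 8 tested members were called lower with Sema3G by limma, beside 0.218% of all tested genes, with 2 of 8 (Tlr2 and Tlr7) lower at an unadjusted p under 0.05, beside 14.2% of all tested genes, and edgeR, DESeq2 and limma-voom on the recovered counts also called 0. The median log2 fold change was -0.47 over the 4 surface receptors and -0.37 over the 4 tested endosomal receptors, and whether the classes differ was not tested. Over listed genes other than Rn45s these medians were -0.20 and -0.095. The endosomal median was -0.079 without PBS replicate 1, -0.66 without PBS replicate 2 (surface median -0.55) and 0.71 with the Rn45s covariate, so the order of the classes is not fixed by these data. Leaving out Tlr8, the 7 remaining members lay between -0.65 and -0.32, while 67.5% of all tested genes had a log2 fold change below 0. The highest Sema3G library was below the lowest PBS library for 4 of the 8 tested members (Tlr2, Tlr3, Tlr4 and Tlr6), as for 26.5% of all tested genes, and the reverse held for Tlr8, as for 11.9%. Over listed genes other than Rn45s these became Tlr2 alone, beside 10.5%, and Tlr8, beside 21.3%.

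The make-up of the family's UMIs gives a view that needs no library total. The 9 genes together had 743 and 555 UMIs under PBS against 567, 548 and 528 under Sema3G. Tlr8 made up 0.135% (95% Wilson interval 0.0238% to 0.758%) and 0.721% (0.281% to 1.84%) of them with PBS. With Sema3G it made up 5.47% (3.88% to 7.66%), 7.12% (5.25% to 9.58%) and 9.47% (7.26% to 12.3%). The intervals of the groups did not meet, and Tlr8 moved from rank 8 of the 9 genes in both PBS libraries to rank 4 in all 3 Sema3G libraries. In Sema3G replicate 1 that rank rests on 31 Tlr8 UMIs against 30 of Tlr4. The endosomal receptors as a class held 51.8% and 40.4% of the family's UMIs with PBS and 52.7%, 46.2% and 46.4% with Sema3G, so the PBS libraries differed from each other by more than the group means did (46.1% ± 8.10, SD, n = 2, and 48.4% ± 3.73, SD, n = 3). Without Tlr8 the endosomal share was 51.8% and 39.9% with PBS and 50.0%, 42.0% and 40.8% with Sema3G. The group ranges overlapped with and without Tlr8.

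**Figure D3:**
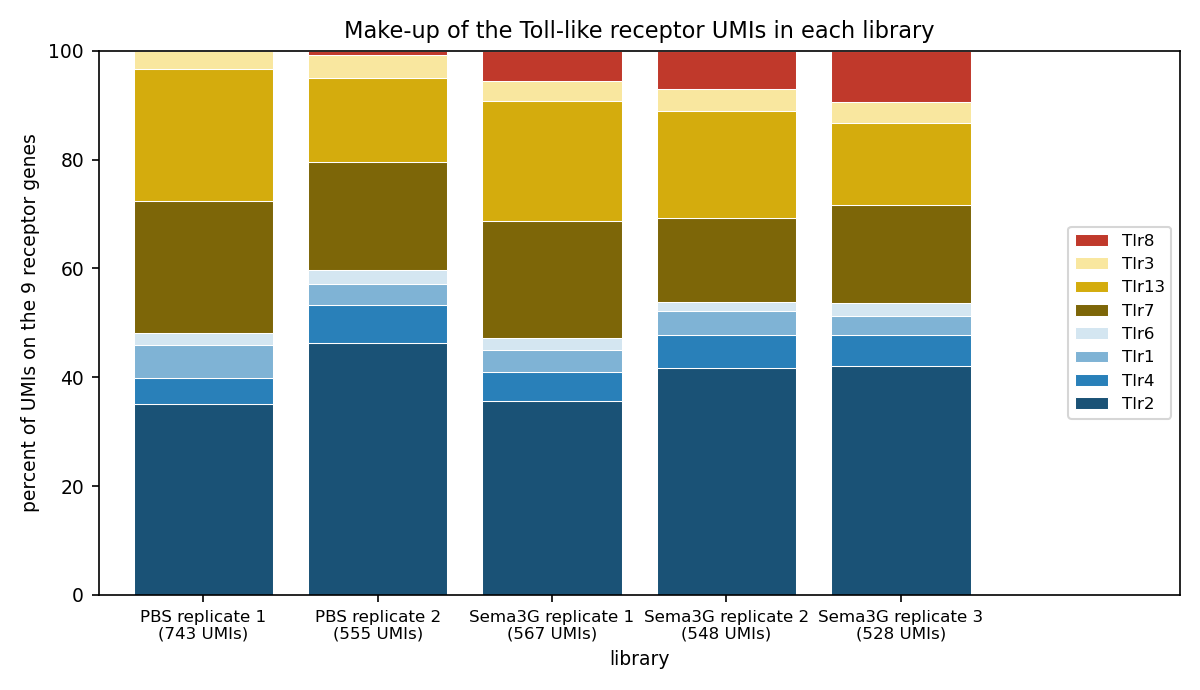
Share of each gene among the UMIs on the 9 Toll-like receptor genes, 1 bar per library, with surface receptors in blue, endosomal receptors other than Tlr8 in yellow and Tlr8 in red (Tlr9 has no UMI). The red share is at most 0.721% with PBS and at least 5.47% with Sema3G, while the boundary between blue and yellow moves more between the PBS libraries than between the group means.

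Tlr8 was also described by the genes whose profile over the 5 libraries was nearest to it, measured as the root-mean-square difference of log2(CPM + 1) values centred on each gene's mean, among the 10088 tested genes. The nearest was Eif4ebp2, which encodes an inhibitor of cap-dependent translation, at a difference of 0.294, with 2 and 6 UMIs under PBS against 24, 45 and 65 under Sema3G. The others were Trip11, a Golgi protein gene, at 0.362, with 8 and 16 against 58, 95 and 99 UMIs, and the small nucleolar RNA gene Snora81 at 0.375, with 1 and 9 against 47, 85 and 91 UMIs. These genes were chosen for this likeness, so their shared order of libraries is no further result.

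Among 41 genes that act with the receptors, 38 were abundant enough to test, 1 was called higher and 1 lower, beside 1.59% and 0.218% of all tested genes. The median log2 fold change of the 38 was -0.19, near the -0.22 of all tested genes. Of the 6 adaptor genes 5 were tested, and Pik3ap1, which encodes the BCAP adaptor that links TLRs to PI3K, rose. It counted 11 and 13 UMIs under PBS against 51, 76 and 88 under Sema3G, giving a log2 fold change of 2.23 (standard error 0.28, with a limma adjusted p = 0.000252), called under 17 of 18 alternatives but not with the Rn45s covariate (1.91, limma adjusted p = 0.183). Myd88, the adaptor used by nearly all TLRs, counted 231 and 238 UMIs under PBS against 178, 182 and 167 under Sema3G, with a log2 fold change of -0.57 that was not called (limma adjusted p = 0.122). Ticam2, which brings TRIF to TLR4, had a log2 fold change of -0.081 (limma adjusted p = 0.860), and Sarm1 was at 0.

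Of the 14 kinase and ligase genes, Irak2, a kinase-family protein of the complex that MyD88 builds, was called lower. It counted 167 and 156 UMIs under PBS against 71, 122 and 106 under Sema3G, which is 87.6 ± 5.83 CPM (SD, n = 2) against 47.8 ± 7.84 CPM (SD, n = 3). The log2 fold change was -0.87 (standard error 0.21, with a limma adjusted p = 0.0418), but it was called under 4 of 18 alternatives only, and its adjusted p was 0.105 after scaling by TMM factors, 0.106 with edgeR's quasi-likelihood test and 0.0664 to 0.167 without PBS replicate 1, PBS replicate 2, Sema3G replicate 2 or Sema3G replicate 3. In those last 4 fits its log2 fold change was -0.81, -0.94, -0.98 and -0.89. Tab2 and Ikbkb, the most abundant genes of this list, had log2 fold changes of -0.061 and -0.58 and were not called (limma adjusted p = 0.877 and 0.138). The 4 tested genes of signalling brakes were not called either, with Nfkbia at -0.12 and Irak3, the inhibitory member of the IRAK family, at -0.066 (limma adjusted p = 0.757 and 0.855).

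None of the co-receptor genes or of the chaperone, traffic and protease genes was called by limma on the deposited CPM, out of 5 and 10 tested, while the co-receptor gene Ly86 was called under 3 of 18 alternatives. Cd14, the LPS co-receptor, counted 1643 and 2329 UMIs under PBS against 1167, 2192 and 1869 under Sema3G (a difference of -0.37 on the log2 scale, with a limma adjusted p = 0.358), and Cd36, which passes lipopeptides to TLR2, was at -0.0057 (limma adjusted p = 0.990). Unc93b1, the chaperone that the endosomal receptors need, was named after its values were seen. It counted 1448 and 1474 UMIs under PBS against 1111, 890 and 887 under Sema3G, all 3 lower, with a log2 fold change of -0.76 that was not called (limma adjusted p = 0.0767) but was called without Sema3G replicate 1 (-0.97, with a limma adjusted p = 0.00685, 5.49% of all tested genes lower) and with the replicate number as a block (limma adjusted p = 0.00613, 2.73% lower). None of the other 16 alternatives called it, with adjusted p-values of 0.195 from limma over listed genes other than Rn45s, 0.176 from edgeR, and 0.381 and 0.371 from limma without Sema3G replicates 2 and 3. The block fit and the fit without Sema3G replicate 3 gave Unc93b1 the same log2 fold change, -0.67. The proteases Ctss and Ctsb, which cut endosomal TLRs, were at 0.32 and -0.44 (limma adjusted p = 0.556 and 0.376).

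**Figure D4:**
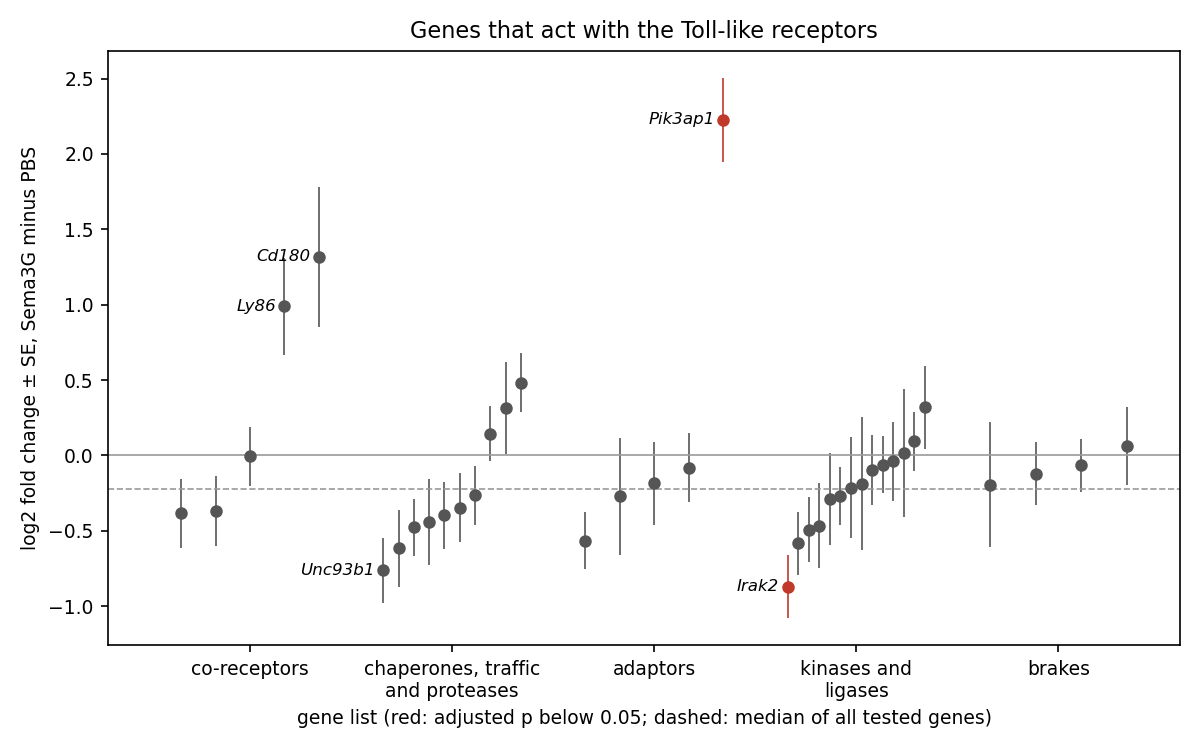
Log2 fold change with its standard error, Sema3G minus PBS, of the 38 tested genes that act with the Toll-like receptors, in 5 lists, with red for an adjusted p below 0.05 from limma. Pik3ap1 at 2.23 and Irak2 at -0.87 are the 2 called genes, and most others lie around the dashed median of all tested genes.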

How the data were processed

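RNA from 5 samples of LPS-activated BMMs, 2 given PBS and 3 given Sema3G, was prepared by the authors with a QuantSeq 3′ FWD kit with UMIs and read in 75-base single-end mode. Per the study's methods, Strand NGS was used for mapping to mm10 and for UMI counts of each gene, and edgeR for normalization, where the submitters' processing notes name version 3.12. Gene annotation, strand setting and filters were not stated. The deposited values are CPM, and 100% of them were whole multiples of 1 step per library (tolerance 0.01 of a count), from which UMI counts were recovered. The authors also deposited a p-value, a q-value and a rank of their own comparison, which were not used. Of the 24419 rows, 27 carry a date in place of a symbol, 2 of these names occur more than once, and none is a mitochondrial transcript row.

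Groups were compared on log2(CPM + 1) in limma 3.58.1 under R 4.3.3, using its trended variance prior, after genes averaging under 1 CPM were removed. P-values were adjusted by Benjamini-Hochberg over all tested genes. The pseudocount makes differences of low genes too small. edgeR 4.0.16 (which called 383 genes on the recovered counts), DESeq2 1.42.0 and limma-voom were alternatives, with other pseudocounts, filters and scalings, the replicate number as a block, the Rn45s share as a covariate and each library left out. Averaging Sema3G replicates 2 and 3, which were the most alike (chi-square per degree of freedom 1.77 against 6.57 or more for the other pairs), was added after seeing the data. The scripts were tested on simulated counts. Named were all members, the other mouse TLRs, pathway genes that were called, the 2 most abundant genes of each pathway list and the 3 genes nearest to a called member. Rn45s was named as a property of the libraries. Unc93b1, Cd180, Ly86, Lgmn, Ctsl, Sarm1, Cd79b and the other cell type markers fall outside this rule and were named after their values were seen. The members and lists were chosen with earlier results of these data known. The exact, Wilson and Poisson intervals and the floors cover counting error only, while the intervals of log2 fold changes come from limma and rest on the spread between samples. Depth limits the rare members, since 3 counts correspond to 1.35 to 1.67 CPM. Gene models came from GENCODE M21 and promoter windows from RefSeq (GRCm38.p6).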

Additional observations from a re-analysis of the deposited data

How the results depend on the processing

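Tlr8 kept its direction under all 18 alternatives and its call under 17 of them, with log2 fold changes from 1.93 to 4.05. The number of called members, 1 (Tlr8), was 0 with the Rn45s covariate and ranged from 1 to 2 with 1 library left out, where Tlr7 was added without Sema3G replicate 1. With the Rn45s covariate the log2 fold changes reversed to 0.74 for Tlr1, 0.36 for Tlr7 and 1.06 for Tlr13, none of them called, and without PBS replicate 1 that of Tlr13 reversed to 0.13 (range -0.97 to 0.13 over libraries left out). The other log2 fold changes of members kept their sign. The number of all genes called, 182, was 108 with no filter, 328 with TMM scaling, 482 over listed genes other than Rn45s, 383 and 304 with edgeR's quasi-likelihood test by its own filter and by a mean of 1 CPM, 309 with limma-voom, 42 with the Rn45s covariate, and 19 with Sema3G replicates 2 and 3 averaged, and leaving out 1 library gave 26 to 856 (26 without Sema3G replicate 2, 28 without Sema3G replicate 3, 92 without PBS replicate 1 and 856 without Sema3G replicate 1). The cause was not tested, apart from the fewer samples or genes some alternatives use.

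The labels number the replicates but do not say that a number is shared between groups. With only 2 shared numbers, the deviations of same-numbered libraries correlated at 0.17 and 0.11 over genes, and PBS replicate 2 and Sema3G replicate 3, which share no number, at 0.097. The deviations of the 2 PBS libraries from their mean mirror each other, so these values are tied and cannot decide whether the samples are paired. With the replicate block, which leaves 1 residual degree of freedom, 573 genes were called, 298 higher and 275 lower, and Tlr8 was again the only member called. Sema3G replicate 3 is the only library with that number, so the block takes it up. The log2 fold changes are then those of the fit without that library, which called 28 genes (Tlr8 3.06 in both). The block is thus no separate estimate, and only its spread differs. A lone PBS library was given the spread of the remaining samples.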

Other observations

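Cd180 and Ly86 encode the RP105 complex, a TLR4-like surface receptor, and were chosen after their values were seen, which were higher in every Sema3G library than in both PBS libraries, as for 11.9% of all tested genes. Cd180 counted 2 and 3 UMIs under PBS against 12, 10 and 8 under Sema3G, giving a log2 fold change of 1.32 (limma adjusted p = 0.135, and 0.0673 to 0.740 over the 14 alternatives that gave it an adjusted p). Ly86 counted 21 and 12 UMIs under PBS against 40, 33 and 39 under Sema3G, giving a log2 fold change of 0.99 (limma adjusted p = 0.116), and it was called under 3 of 18 alternatives, among them TMM scaling (limma adjusted p = 0.0451) and edgeR's quasi-likelihood test (adjusted p = 0.0413). The log2 fold change of Ly86 was 0.61 without PBS replicate 2 (limma adjusted p = 0.313) and 1.37 without PBS replicate 1 (limma adjusted p = 0.0826). Neither gene was called in the main comparison.

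Some members differed between libraries of the same group by more than counting error, a pattern looked up after the values were seen. Genes in general did so too, since the chi-square per degree of freedom was 11.4 between the PBS libraries over 7861 genes and 6.57 between Sema3G replicates 1 and 2 over 7860 genes, so nothing particular to these members follows. In PBS replicate 1 against PBS replicate 2 the CPM ratio was 2.17 for Tlr13 (exact 95% interval 1.67 to 2.85), 1.66 for Tlr7 (1.31 to 2.13) and 2.20 for Tlr1 (1.28 to 3.89). For Tlr2, Tlr4, Tlr3 and Tlr6 it was 1.04, 0.921, 1.03 and 1.25, with intervals that included 1. In Sema3G replicate 1 against Sema3G replicate 2, Tlr7 was again apart, at 1.77 (1.33 to 2.36), as was Tlr13, at 1.44 (1.10 to 1.88). Of the genes of proteases that cut endosomal receptors, Lgmn was at 1.73 (1.54 to 1.96) between the PBS libraries and 1.93 (1.68 to 2.23) between Sema3G replicates 1 and 2, and Ctsb at 1.60 (1.54 to 1.67) and 1.64 (1.57 to 1.71). Ctss was at 1.77 and 1.18 and Ctsl at 1.07 and 1.07, while the chaperone gene Unc93b1 was at 1.01 and 1.54. Rn45s was at 0.315 and 0.853. For Sema3G replicate 1 against 3 the ratio was 1.55 for Tlr7, 1.88 for Tlr13, 1.503 for Lgmn and 1.69 for Ctsb. For replicate 2 against 3 it was 0.876, 1.31, 0.778 and 1.03 in the same order. The relation among these genes was not tested.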
